A study of Mus musculus with 9 samples.

Results

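The genes described here are 39 genes of DNA replication and S phase, found by symbol among the 54876 genes of the deposited table, and all 39 were present once and passed the filter on low values. They were measured in MIN6 cells, a mouse insulinoma line labelled as strain C57BL/6 that stands in for pancreatic beta cells. All libraries come from this 1 line, which proliferates and derives from tumours driven by a viral large T antigen, an oncoprotein that binds the retinoblastoma proteins. Arginine in the medium was 0.1, 1 or 20 times its usual concentration for 24 h, here called low, standard and high arginine, with 3 libraries of total RNA in each medium and no other treatment given in the labels. Nothing in the labels says that the replicates were separate cultures, and the p-values below therefore cover the spread among these libraries alone, which may be technical.

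A replicating cell first licenses its origins in G1, when the origin recognition complex with CDC6 and CDT1 loads the MCM2 to MCM7 helicase onto DNA. In S phase, CDC45 and the GINS complex turn the loaded helicase into a moving one, polymerase alpha with its primase starts each strand, polymerases epsilon and delta extend it, and the PCNA clamp, placed by the RFC loader, holds them on the template. FEN1 and DNA ligase I then join the Okazaki fragments, while ribonucleotide reductase, thymidylate synthase and thymidine kinase supply the nucleotides. Many of these genes are known targets of the E2F transcription factors, which the retinoblastoma protein holds back and cyclin E with its kinase releases at the start of S phase.

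Promoter sequence was compared first, over all members with a window and whatever their call in low arginine. RefSeq windows of 300 bases (GRCm38.p6, 250 before and 50 after a gene start) were found for 31 members, in 36 windows; Gins1, Gins2, Gins4, Mcm4, Pole, Prim2, Rfc2 and Ccne2 had none. An E2F-type octamer (TTTCCCGC, TTTCGCGC, TTTGCCGC or TTTGGCGC on either strand) lay in 13 of the 36 windows, or 36.1%, against 2.26% of all 32851 windows. CCAAT on either strand lay in 61.1% of the member windows against 37.4% of all, and the cell cycle element TTTGAA in 11.1% against 17.9%. The 160 bases before the RefSeq start of 6 members are printed here. The stretches were picked to show E2F-type matches in genes that did and did not change in low arginine. For a riser and a faller the printed stretch shows none. Letters run 5′ to 3′ on the gene's strand, and capitals mark E2F-type octamers and CCAAT, which reads ATTGG on the other strand; they were chosen after matches and values were seen.
Cdc6, chr11:98907991-98908150, plus strand: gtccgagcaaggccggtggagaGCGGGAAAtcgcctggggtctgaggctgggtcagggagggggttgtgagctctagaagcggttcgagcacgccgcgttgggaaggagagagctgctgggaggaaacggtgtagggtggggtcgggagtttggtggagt
Pola1, chrX:93632156-93632315, minus strand: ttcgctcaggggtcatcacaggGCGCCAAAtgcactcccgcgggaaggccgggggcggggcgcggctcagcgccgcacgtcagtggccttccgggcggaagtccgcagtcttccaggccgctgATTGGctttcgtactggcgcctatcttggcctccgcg
Mcm5, chr8:75109349-75109508, plus strand: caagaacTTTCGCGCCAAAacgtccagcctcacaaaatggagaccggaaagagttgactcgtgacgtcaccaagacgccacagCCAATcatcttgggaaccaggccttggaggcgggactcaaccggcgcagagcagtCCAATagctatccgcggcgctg
Mcm6, chr1:128359706-128359865, minus strand: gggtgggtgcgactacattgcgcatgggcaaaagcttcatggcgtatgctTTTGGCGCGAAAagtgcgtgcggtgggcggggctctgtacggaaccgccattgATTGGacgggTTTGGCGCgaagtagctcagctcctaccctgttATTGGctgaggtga
Rrm2, chr12:24708094-24708253, plus strand: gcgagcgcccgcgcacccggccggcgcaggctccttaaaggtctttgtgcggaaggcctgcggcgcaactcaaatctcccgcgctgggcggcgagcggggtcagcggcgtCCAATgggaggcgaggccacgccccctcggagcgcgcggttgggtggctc
Fen1, chr19:10204394-10204553, minus strand: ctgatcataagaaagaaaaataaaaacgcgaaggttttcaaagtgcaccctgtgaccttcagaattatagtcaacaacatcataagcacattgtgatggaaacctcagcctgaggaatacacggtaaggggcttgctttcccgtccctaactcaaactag

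RefSeq starts need not be those of the deposited gene model: the Cdc6 start lies 350 bases inside the gene as deposited, so that the Cdc6 stretch is within it, and the Fen1 start, the nearer of 2, lies 224 bases upstream of the deposited one. The octamer starts 138 bases before the RefSeq start in both Cdc6 and Pola1. In Mcm5 a pair of overlapping octamers starts at -153 and -149, and in Mcm6 such a pair starts at -110 and -106 with a further octamer at -47. Rrm2 shows CCAAT alone, at -50, and the Fen1 stretch neither motif. The other Fen1 window is not shown and could hold an octamer. Of the fallers, Orc1 and Pold1 held an octamer in the window nearest the deposited start. A further faller counted below held one only in another window, of Fen1 or of Lig1. Counting any window of a member, E2F-type octamers were found in 6 of the 15 members with a window that were higher in low arginine, in 3 of the 5 that were lower and in 4 of the 11 without a call. CCAAT was found in 12 of those 15, 1 of those 5 and 7 of those 11. Such a match describes letters in a window and is not a measured binding site.

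Reads in genes numbered 21550637 to 26300872 per library, and each member was covered by 141 to 25774 reads in each. Of the listed beta cell markers 9 of 10 had a mean of at least 1 FPKM, with Ins2 at 50209 and Iapp at 25491 FPKM (fragments per kilobase of exon, scaled to library depth) over the 9 libraries, while Slc2a2 was near 0 at 0.0103. Of the 16 stromal, endothelial, immune, ductal and acinar markers none reached 1 FPKM in its mean, and 4 were listed at 0. Hormone genes of other islet cells were detected: Sst had a mean of 7097 FPKM and Gcg, the glucagon gene of alpha cells, of 23.0, while the alpha cell marker Ttr, which encodes transthyretin, had 690. The summed level of the 4 delta and PP cell markers was 8719 to 11314 FPKM in low against 5434 to 6208 in standard arginine, and that of the 5 alpha cell markers 260.3 to 341 against 890.3 to 991; their part in the results was not tested.

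In low arginine 3 of the 4 licensing genes and 8 of the 12 helicase and firing genes were called higher. Both members of Okazaki fragment joining, Fen1 and Lig1, were called lower. Of the 39 members 21 were called higher and 6 lower, or 53.8% and 15.4%, in limma with an adjusted p (Benjamini-Hochberg) under 0.05, where 30.3% and 31.9% of all 12300 genes tested were higher and lower. Their median log2 change, on the log2(FPKM + 1) scale that all changes here use, was 0.23, against 0.001 over all genes tested. In TPM, which scales libraries to an equal summed transcript level, 4843 of all genes were higher and 3018 lower, against 3723 and 3923 in FPKM, and the medians of members and of all genes were 0.361 and 0.115. Together the members held 0.763 ± 0.034% of all reads under low arginine, 0.564 ± 0.0147% under standard and 0.630 ± 0.0351% under high (SD, n = 3 each). In RNA from whole cultures, a larger share of cells in a cell cycle phase and more RNA per cell cannot be told apart.

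**Figure D1:**
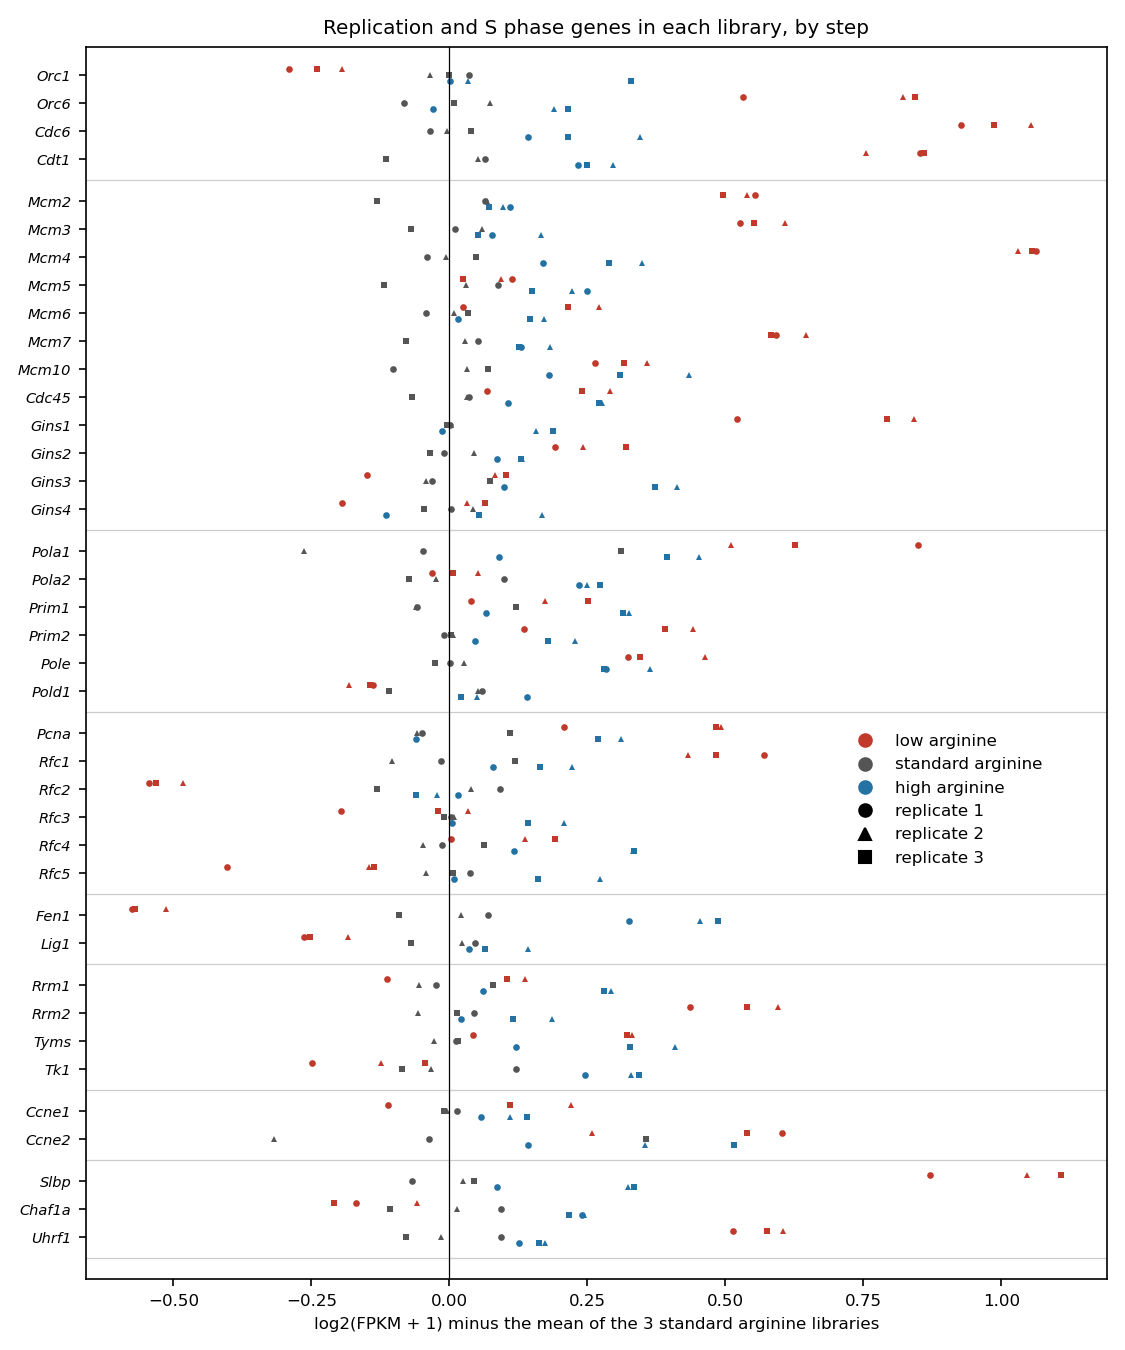
Log2(FPKM + 1) of each of the 39 members in each of the 9 libraries (x axis), as the difference from the mean of the 3 standard arginine libraries; rows are genes grouped by step, colours are media and marker shapes replicate numbers. Mcm4, Cdc6 and Slbp in low arginine lie near 1 to the right, Fen1 and Rfc2 lie furthest to the left, and the high arginine libraries lie mostly to the right of 0 by a smaller distance.

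Single libraries bear on these levels. Within low arginine, replicate 1 held the lowest value for 29 of the 39 members, within high arginine replicate 1 did so for 31 and replicate 2 held the highest for 25. Without both of these replicates 1, an alternative chosen after seeing the data, 24 members were higher and 3 lower in low arginine. Of all 12300 genes tested, 3552 were higher and 3707 lower there. The number of lower members fell from 6 to 3 without low replicate 1, without standard replicate 1 or without standard replicate 2; Fen1, Rfc2 and Lig1 kept the call in all 22 alternatives. Orc1, Pold1 and Rfc5 kept it in 12 of 21, 8 of 22 and 13 of 22. Among members without a call, Prim1 and Ccne1 passed as higher in 5 of 22 alternatives and Rfc4 in 4, and Chaf1a passed as lower in 4.

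Origin licensing held some of the largest rises. Cdc6, the ATPase that recruits the helicase (chromosome 11, 98907801 to 98923940, GRCm38), measured 29.1, 31.9 and 30.4 FPKM in low, 14.5, 14.8 and 15.3 in standard and 16.5, 19.1 and 17.4 in high arginine. The low libraries lay about 2-fold above the standard ones, and the high ones slightly above them without overlap. Its log2 change in low arginine was 0.99 (SE 0.06, adjusted p 4.4e-07). Cdt1, its partner in loading, had 56.7, 52.97 and 57.05 FPKM in low, 32.4, 32.1 and 28.5 in standard and 36.5, 38.3 and 37.01 in high arginine, a log2 change of 0.82 in low arginine (SE 0.06, adjusted p 1.3e-06). Orc6, a subunit of the origin recognition complex, rose from 17.6 ± 1.00 to 30.1 ± 3.59 FPKM (SD, n = 3 each). Orc1, the ATPase subunit of the same complex, went the other way and was the least abundant member, at 1.54, 1.72 and 1.63 FPKM in low, 2.19, 2.04 and 2.11 in standard and 2.11, 2.19 and 2.91 in high arginine. The 3 low values of Orc1 lay below the standard ones, and the log2 change was -0.24 (SE 0.09, adjusted p 0.038); that call was lost in TPM (adjusted p 0.154), without a filter on low values (0.101) and without any 1 of the 6 low and standard libraries. The ratio of Cdc6 to Orc1 FPKM within a library was 18.6 ± 0.162 in low arginine, 7.03 ± 0.37 under the standard medium and 7.5 ± 1.41 in high. This ratio, like the later ones of gene pairs, sets a member called higher in low arginine over one that was not. Its shift follows from those calls and is not read as a result.

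Of the 12 helicase and firing genes 8 were higher in low arginine, or 66.7%, and none lower, against 30.3% and 31.9% of all genes tested. Mcm4, a subunit of the helicase ring (chromosome 16, 15623897 to 15637400), had the largest rise of all members. It measured 79.1, 77.2 and 78.7 FPKM in low, 36.3, 37.2 and 38.6 in standard and 42.1, 47.8 and 45.9 in high arginine, with a log2 change of 1.05 (SE 0.06, adjusted p 1.6e-07). No low library came near the standard range. Mcm7, another ring subunit, had 77.5, 80.6 and 77.03 FPKM in low, 53.01, 52.1 and 48.4 in standard and 56.04, 58.2 and 55.9 in high arginine, a log2 change of 0.61 in low arginine. Mcm2 and Mcm3 rose by 0.53 and 0.56. Mcm5 and Mcm6, which complete the ring, did not pass the test. Mcm5 measured 95.3, 93.98 and 89.6 FPKM in low, 93.6, 89.9 and 81.01 in standard and 105, 103 and 97.7 in high arginine, so low and standard libraries overlapped (log2 change 0.08, SE 0.06, adjusted p 0.31). Mcm6 measured 72.4, 86.04 and 82.7 FPKM in low, 69.1, 71.6 and 72.9 in standard and 71.9, 80.3 and 78.8 in high arginine, with 1 low library inside the standard range (log2 change 0.17, SE 0.07, adjusted p 0.061). Both passed as higher in TPM, where Mcm5 was at 0.20 (adjusted p 0.00474) and Mcm6 at 0.30 (adjusted p 0.00487), and under quantile normalization; Mcm6 did so in 8 of 22 alternatives in all, among them without low replicate 1.

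The 6 ring subunits, which assemble in equal numbers, lay closer to each other in FPKM in low arginine. The highest of Mcm2 to Mcm7 was 1.51, 1.41 and 1.37 times the lowest in the low libraries, 2.58, 2.42 and 2.1 times in the standard and 2.49, 2.15 and 2.13 times in the high ones. Mcm4 was the lowest of the 6 in standard arginine, at 37.4 ± 1.196 FPKM against 88.2 ± 6.49 for Mcm5 (SD, n = 3 each). Ratios within a library do not depend on a scale factor shared by all genes of that library, but they can carry a dependence on GC content or gene length. They were not computed again with that dependence removed. This ratio was singled out after the values were seen, and 3 libraries against 3 allow no exact p below 0.1.

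**Figure D2:**
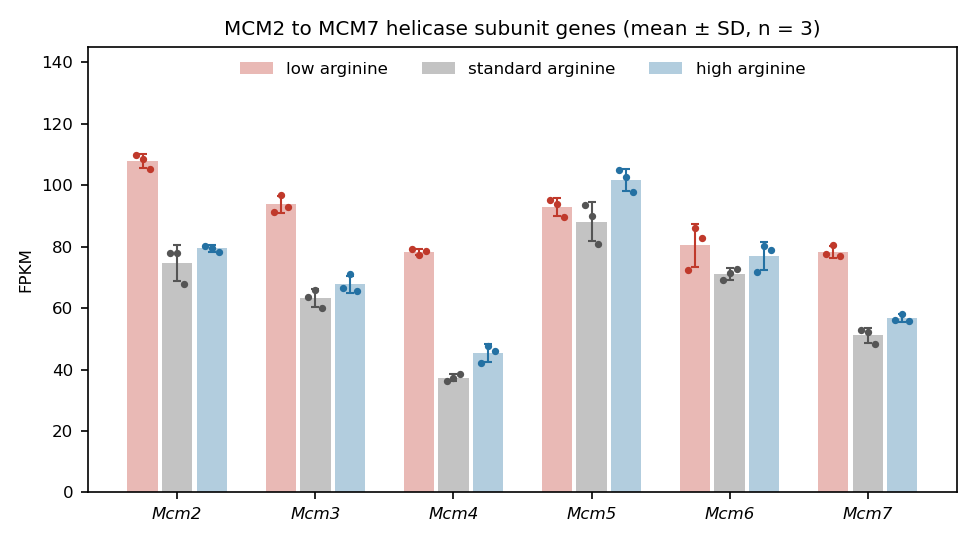
FPKM (y axis) of the 6 MCM ring subunit genes (x axis) in low, standard and high arginine; bars are means, error bars SD over 3 libraries and points single libraries. Low arginine bars of Mcm2, Mcm3, Mcm4 and Mcm7 stand clear of the standard ones, while those of Mcm5 and Mcm6 do not.

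Helicase activation changed less evenly. Gins1, a subunit of the GINS complex, rose from 15.3 ± 0.0426 to 26.00 ± 3.13 FPKM (log2 change 0.72, SE 0.09, adjusted p 3.7e-05), and Gins2 by 0.25 (SE 0.05). Gins3 and Gins4, the other two subunits, did not pass. Gins3 measured 13.3, 15.8 and 16.05 FPKM in low, 14.5, 14.4 and 15.7 in standard and 16.00, 20.1 and 19.6 in high arginine, with overlap between low and standard. Gins4 measured 37.2, 43.7 and 44.8 FPKM in low, 42.9, 44.1 and 41.4 in standard and 39.4, 48.1 and 44.4 in high arginine, and all media overlapped. Gins1 stood at 0.62 ± 0.0238 times Gins4 in low and 0.359 ± 0.0104 times in standard arginine. Mcm10, which helps to activate the helicase, rose by 0.31 (SE 0.07), and Cdc45, a part of the moving helicase, by 0.20 (SE 0.07, adjusted p 0.035). The Cdc45 call was lost in 6 of 22 alternatives, among them leaving out any 1 standard library, low replicate 2 or low replicate 3.

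Of the 6 polymerase genes 3 were higher and 1 lower in low arginine, or 50% and 16.7%, against 30.3% and 31.9% of all genes tested. Pole, the catalytic subunit of polymerase epsilon, which copies the leading strand, measured 11.5, 12.8 and 11.7 FPKM in low, 8.98, 9.16 and 8.80 in standard and 11.2, 11.8 and 11.1 in high arginine. Both altered media lay above standard without overlap, and the log2 change was 0.38 in low arginine (SE 0.06, adjusted p 0.00019) and 0.31 in high arginine (SE 0.06, adjusted p 0.051). Pola1, the catalytic subunit of polymerase alpha, measured 6.70, 5.08 and 5.60 FPKM in low, 3.14, 2.56 and 4.30 in standard and 3.55, 4.85 and 4.62 in high arginine, and rose by 0.66 in low arginine (SE 0.15, adjusted p 0.0026). Its second subunit Pola2 did not pass, at 23.3, 24.8 and 23.98 FPKM in low, 25.6, 23.4 and 22.6 in standard and 28.3, 28.6 and 29.1 in high arginine. Low and standard Pola2 values overlapped, while the high ones lay above both. In the primase, Prim2 rose by 0.32 (SE 0.08), which became 0.19 without a call (adjusted p 0.0574) once the GC content and length trend was removed, and Prim1 did not pass at 29.4, 32.4 and 34.2 FPKM in low, 27.4, 27.4 and 31.2 in standard and 29.98, 36.1 and 35.8 in high arginine. Pold1, the catalytic subunit of polymerase delta, measured 26.3, 25.5 and 26.1 FPKM in low, 30.3, 30.1 and 26.8 in standard and 32.1, 30.1 and 29.5 in high arginine. Its log2 change in low arginine was -0.16 (SE 0.06, adjusted p 0.046), a call lost in 14 of 22 alternatives, among them TPM (-0.03), quantile normalization (-0.07), and leaving out any 1 of low replicates 1 to 3, standard replicates 1 and 2 or high replicates 2 and 3.

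The clamp rose and its loader moved both ways. Pcna, the sliding clamp and the most abundant member, measured 315, 384 and 381 FPKM in low, 263, 262 and 294 in standard and 261, 339 and 329 in high arginine, a log2 change of 0.39 in low arginine (SE 0.11, adjusted p 0.0088), or 0.73 under quantile normalization. All low values were above the standard ones, and high replicate 1 lay below them all. Among the loader subunits, Rfc1, the large subunit, measured 21.6, 19.6 and 20.3 FPKM in low, 14.1, 13.2 and 15.6 in standard and 15.1, 16.8 and 16.1 in high arginine, a log2 change of 0.49 (SE 0.07, adjusted p 0.00013). Rfc2, a small subunit (chromosome 5, 134581366 to 134601805), measured 15.7, 16.4 and 15.8 FPKM in low, 24.9, 24.01 and 21.2 in standard and 23.6, 22.96 and 22.3 in high arginine, a log2 change of -0.52 (SE 0.06, adjusted p 4.6e-05). The ratio of Rfc1 to Rfc2, which restates these opposite calls, was 0.616 ± 0.102 in standard and 1.29 ± 0.0926 in low arginine (SD, n = 3 each), with 0.698 ± 0.0501 in high. Rfc5 fell by 0.23 (SE 0.09, adjusted p 0.039), from 12.5, 11.7 and 12.2 to 8.92, 10.9 and 10.9 FPKM, but the call was lost in 9 of 22 alternatives, among them TPM (adjusted p 0.278), leaving out low replicate 1, any 1 standard library or high replicate 3, and removing the GC content and length trend. Rfc3 and Rfc4 did not pass: Rfc3 measured 15.7, 18.6 and 17.9 FPKM in low, 18.2, 18.3 and 18.04 in standard and 18.2, 21.1 and 20.1 in high arginine, with overlap between low and standard. Rfc4 measured 62.2, 68.3 and 71.1 FPKM in low, 61.5, 60.1 and 64.9 in standard and 67.4, 78.4 and 78.5 in high arginine, where the high values lay above the standard ones.

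Both members of Okazaki fragment joining, Fen1 and Lig1, were called lower in low arginine, as were 31.9% of all genes tested. With 2 genes this does not describe the step as a whole. Fen1, the flap endonuclease (chromosome 19, 10199132 to 10204169), measured 9.06, 9.49 and 9.09 FPKM in low, 14.7, 14.2 and 13.1 in standard and 17.8, 19.5 and 19.99 in high arginine. No 2 media overlapped, and the order low, standard, high was the order of arginine. The log2 change was -0.55 in low arginine (SE 0.06, adjusted p 2.8e-05), 0.42 in high against standard (SE 0.06, adjusted p 0.031) and 0.97 in high against low (SE 0.06, adjusted p 4.7e-07). Lig1, DNA ligase I, measured 53.2, 56.2 and 53.6 FPKM in low, 66.1, 65.1 and 60.97 in standard and 65.6, 70.7 and 66.97 in high arginine, a log2 change of -0.23 in low arginine (SE 0.06, adjusted p 0.0038). In TPM and under quantile normalization it was -0.11 in both (adjusted p 0.0454 and 0.0496). The ratio of Pcna to Fen1, which act together on the lagging strand, was 39.1 ± 3.79 in low arginine, 19.6 ± 2.54 under the standard medium and 16.2 ± 1.35 in high. Fen1 is uncertain, because 78.8% of its exonic length is shared with Gm10143 and 5.37% with Tmem258, both on the opposite strand, and the sources used here do not give whether counting used strand. Gm10143 was at a mean of 0.237 FPKM and Tmem258 at 67.7. The same uncertainty touches Gins2 (67.3% of its length, with Gse1) and Chaf1a (52.5%, with Ubxn6); 17.4% or less was shared with a gene on the opposite strand in 12 further members.

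**Figure D3:**
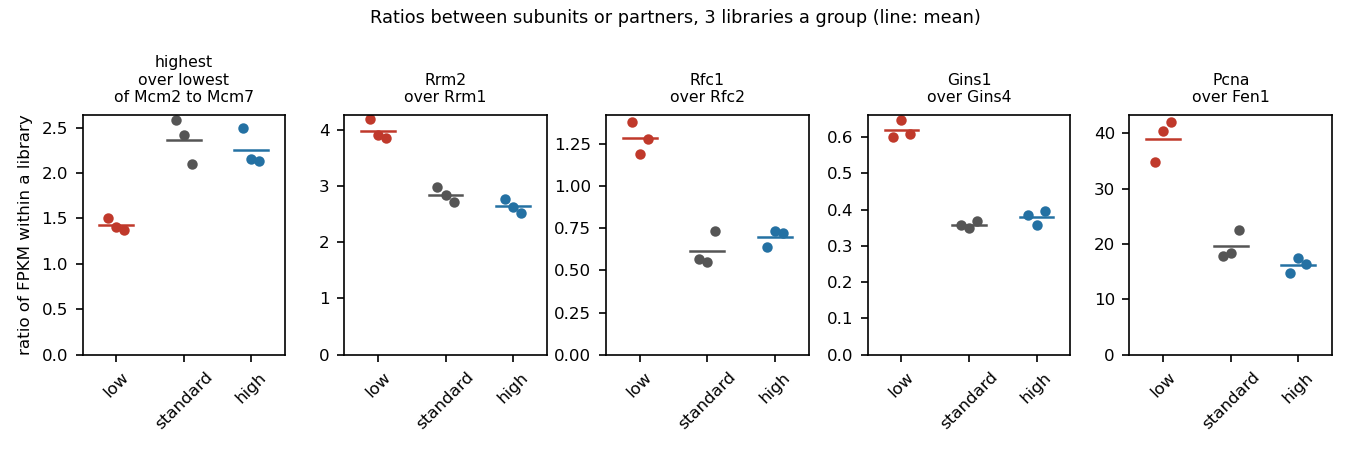
Ratio of FPKM between subunits or partners within each library (y axes, from 0) for 3 libraries each in low, standard and high arginine (x axes); lines are means. The panels show 5 of the 11 ratios computed, in each of which the 3 low arginine points lie apart from the 6 others. The MCM ratio was singled out after the values were seen. Each other ratio sets a member called higher in low arginine over a member that was not, so the separation is not read as a result.

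Nucleotide supply changed in part. Rrm2, the small subunit of ribonucleotide reductase whose level varies with the cell cycle (chromosome 12, 24708241 to 24714146), measured 128, 143 and 138 FPKM in low, 97.3, 90.6 and 95.3 in standard and 95.7, 107 and 102 in high arginine, a log2 change of 0.52 in low arginine (SE 0.06, adjusted p 4.1e-05). Its partner Rrm1, the large subunit, did not pass, at 30.6, 36.6 and 35.8 FPKM in low, 32.6, 31.9 and 35.1 in standard and 34.7, 40.9 and 40.5 in high arginine. Rrm2 stood at 3.98 ± 0.177 times Rrm1 in low arginine, 2.84 ± 0.136 times under the standard medium and 2.64 ± 0.119 times in high. Tyms, thymidylate synthase, measured 21.4, 26.3 and 26.2 FPKM in low, 20.9, 20.3 and 20.99 in standard and 22.6, 27.9 and 26.3 in high arginine; its rise in low arginine (0.23, SE 0.09, adjusted p 0.047) lost the call in 9 of 22 alternatives, among them leaving out low replicate 2 or 3, any 1 standard library or high replicate 3. Tk1, thymidine kinase, did not pass, at 11.9, 13.1 and 13.9 FPKM in low, 15.7, 13.97 and 13.4 in standard and 17.2, 18.3 and 18.5 in high arginine. For Tk1 the low and standard values overlapped and the high ones were above both.

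The S phase cyclins and chromatin genes completed the set. Ccne1, cyclin E1, measured 47.8, 60.4 and 55.9 FPKM in low, 52.2, 51.5 and 51.4 in standard and 53.8, 55.8 and 57.1 in high arginine and did not pass in low arginine. Ccne2, cyclin E2, measured 28.3, 22.1 and 27.1 FPKM in low, 17.8, 14.5 and 23.7 in standard and 20.3, 23.7 and 26.6 in high arginine. It was called higher in low arginine (0.47, SE 0.16, adjusted p 0.025) although low and standard values overlapped, and the call was lost in 6 of 22 alternatives, including without low replicate 1 or 3 or standard replicate 1 or 2. Ccne2 stood at 0.481 ± 0.113 times Ccne1 in low, 0.361 ± 0.092 times in standard and 0.423 ± 0.0441 times in high (SD, n = 3 each). Of 11 within-library ratios computed this was the 1 in which the low libraries overlapped the others. Apart from the MCM range, each ratio set a member called higher in low arginine over a member that was not. The separation of the low libraries in these ratios is therefore not read as a result. Slbp, which binds the stem-loop of replication-dependent histone mRNAs (chromosome 5, 33634952 to 33652574), had one of the largest rises. It measured 25.4, 28.8 and 30.05 FPKM in low, 12.7, 13.7 and 13.9 in standard and 14.3, 17.03 and 17.2 in high arginine, a log2 change of 1.01 (SE 0.08, adjusted p 2.6e-06). Uhrf1, which guides maintenance of DNA methylation at replicated DNA, measured 65.9, 70.2 and 68.8 FPKM in low, 49.01, 45.4 and 43.4 in standard and 50.2, 51.9 and 51.5 in high arginine, a log2 change of 0.56 in low arginine (SE 0.06, adjusted p 1.2e-05). Chaf1a, the large subunit of the histone chaperone CAF-1, did not pass in low arginine, at 12.9, 14.04 and 12.6 FPKM in low, 15.7, 14.8 and 13.5 in standard and 17.5, 17.6 and 17.2 in high arginine. The ratio of Slbp to Chaf1a went from 0.919 ± 0.106 in standard to 2.13 ± 0.228 in low arginine (SD, n = 3 each).

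**Figure D4:**
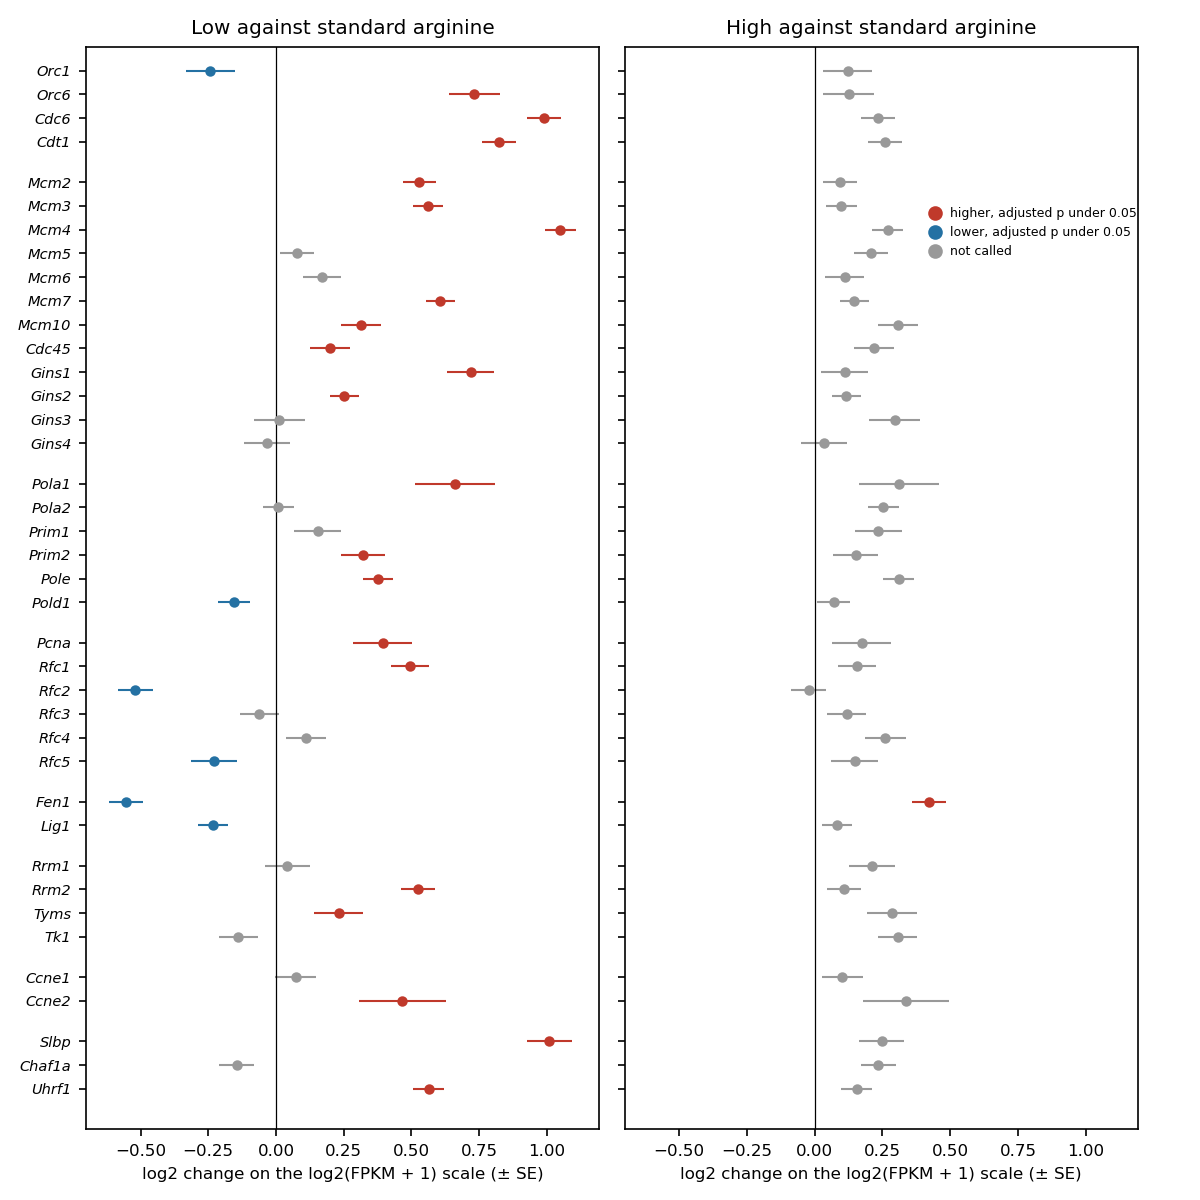
Log2 change (x axis, ± SE from limma) of each member (rows, grouped by step) in low and in high against standard arginine; red and blue mark genes called higher and lower, grey those not called. In low arginine 21 are red and 6 blue, and in high arginine only Fen1 is called.

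High arginine gave small shifts in the same set. Fen1 was the 1 member called higher and 0 were called lower, where 0.138% and 0.171% of all genes tested were; 19 members had an unadjusted p under 0.05, against 14.3% of all genes tested. The log2 change was above 0 for 38 of 39 members and for 54.7% of all genes tested, with medians of 0.17 and 0.01. This direction was not particular to the members. In the lists described below, it was above 0 for 47 of 54 other replication genes, 21 of 22 mitosis genes and 12 of 13 E2F and pocket protein genes. In 21 members every high library lay above every standard library, or 53.8%, against 10.4% of all genes tested. Besides Fen1 the largest changes were those of Ccne2 (0.34, SE 0.16), Pola1 (0.31, SE 0.15), Pole, Mcm10 (0.31, SE 0.07) and Tk1 (0.31, SE 0.07), none of which passed. Rfc2 alone was below 0 (-0.02, SE 0.06).

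The Fen1 call in high arginine was held in 13 of 22 alternatives, with log2 changes of 0.38 to 0.47 and adjusted p values of 0.00487 to 0.157. It was lost without standard replicate 1 (adjusted p 0.0679), standard replicate 2 (0.13), high replicate 2 (0.157), high replicate 3 (0.131), low replicate 2 (0.0592) or low replicate 3 (0.0648), with only the 6 libraries compared (0.0884), without a filter on low values (0.0981), and without low replicate 1 and high replicate 1 together (0.0511). With array weights, which gave standard replicate 3 a weight of 0.33 and high replicate 2 a weight of 2.46, 18 members were called higher, and 713 genes of all tested.

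Set directly against low arginine, high arginine had 10 members higher and 13 lower, or 25.6% and 33.3%, where 32.3% and 29.2% of all genes tested were, so the members' shares lay near those of all genes. The median log2 change was -0.005 against 0.01. This contrast shares the low libraries, with the opposite sign, with that of low against standard, so a gene high in those 3 libraries is pushed higher in one and lower in the other, and the fact that calls go opposite ways is not read as a result. The lower members were Orc6, Cdc6, Cdt1, Mcm2, Mcm3, Mcm4, Mcm7, Gins1, Gins2, Rfc1, Rrm2, Slbp and Uhrf1, at log2 changes of -0.78 for Mcm4 to -0.14 for Gins2. The higher ones were Fen1, Rfc2, Tk1, Rfc5, Chaf1a, Orc1, Lig1, Gins3, Pola2 and Pold1, at 0.97 for Fen1 to 0.23 for Pold1. Tk1 was at 0.45 (SE 0.07, adjusted p 0.00033) and Chaf1a at 0.38 (SE 0.06, adjusted p 0.00045). Same-numbered low and high libraries deviated together. With the replicate block, which was fitted to all 9 libraries and so also paired the standard ones by number, 14 members were higher and 15 lower. Of all 12300 genes tested, 4194 were higher and 3866 lower with it. The block added Mcm5 (0.13, adjusted p 0.0183), Rfc3 (0.18, adjusted p 0.0179), Rfc4 (0.15, adjusted p 0.0294) and Rrm1 (0.17, adjusted p 0.0318) as higher, and Pcna (-0.22, adjusted p 0.0185) and Prim2 (-0.17, adjusted p 0.0373) as lower. The Gins2 call was lost in 12 of 22 alternatives and the Gins3 call in 6, and in TPM those of Pola2 (adjusted p 0.0636) and Pold1 (adjusted p 0.0898) were lost.

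Base composition moved with the calls in low arginine. Transcripts of the 21 risers had a median GC content of 46.9% and those of the 6 fallers of 52.5%, and over all genes tested risers had 48.2% and fallers 52.0%. After the dependence on GC content and length was removed from each library, 22 members were higher and 5 lower in low arginine, and 7 were higher in high against standard arginine. Of the 12066 genes in that fit, 4028 were higher and 3882 lower in low arginine, and those higher in high against standard numbered 147, against 17 without this step.

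Other replication genes came from a list of 54 that holds none of the members. This list and those of mitosis and E2F genes below were drawn up with earlier results of these data known, so they are not independent of them. Of the 54, 32 were higher and 8 lower in low arginine, or 59.3% and 14.8%, against 30.3% and 31.9% of all genes tested. Their median log2 change was 0.31. Recql4, a helicase needed at firing origins, rose from 7.68 ± 0.189 to 17.2 ± 0.447 FPKM (SD, n = 3 each; log2 change 1.07, adjusted p 5.6e-08). Timeless, of the fork protection complex, rose by 0.82, Mcm8, a helicase of recombination repair, by 0.90 and Nasp, a histone chaperone, by 0.80. Among the 8 that fell, singled out after the values were seen, was Gmnn, which encodes geminin, the inhibitor of CDT1: it measured 31.2, 36.8 and 35.6 FPKM in low, 50.8, 49.98 and 49.6 in standard and 51.4, 59.7 and 58.7 in high arginine (log2 change -0.53, adjusted p 0.00013). In high against standard arginine 0 of the 54 were called in limma, 18 reached an unadjusted p under 0.05 (14.3% of all genes did) and the median was 0.14.

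Genes of mitosis were more often lower than higher in low arginine. Of 22, 12 were lower and 1 higher, or 54.5% and 4.55%, against 31.9% and 30.3% of all genes tested. Their median log2 change was -0.23. Aurkb, the Aurora B kinase of chromosome segregation, measured 10.2, 13.1 and 12.9 FPKM in low, 32.5, 30.4 and 30.6 in standard and 35.9, 38.8 and 38.95 in high arginine, a log2 change of -1.31 in low arginine (SE 0.08, adjusted p 4.4e-07). Cenpa, the centromeric histone, was at -0.99, Plk1, a mitotic kinase, at -0.74 and Aurka, the Aurora A kinase, at -0.78. Ndc80, a kinetochore protein, was the 1 that rose, by 0.99 (adjusted p 3.9e-05). In high against standard arginine 0 of the 22 were called in limma, 6 had an unadjusted p under 0.05 (14.3% of all genes did) and the median was 0.18. No test set one list against another.

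Of the 13 E2F and pocket protein genes 7 were higher and 1 lower in low arginine, or 53.8% and 7.69%, against 30.3% and 31.9% of all genes tested. Their median log2 change was 0.22. Rbl1, which encodes the pocket protein p107, rose from 6.23 ± 0.324 to 11.9 ± 0.502 FPKM (SD, n = 3 each; log2 change 0.83, adjusted p 2.1e-06). Tfdp1, E2f8, E2f7, Rb1 and E2f4 rose by 0.33, 0.31, 0.29, 0.29 and 0.22. E2f3, E2f5, E2f6 and Tfdp2 did not pass, at 0.16, -0.16, -0.10 and 0.17. Rbl2, which encodes the pocket protein p130, was the 1 that fell (-0.18, adjusted p 0.037). E2f1, an activator, did not pass in low arginine, at 48.2 ± 2.09 FPKM against 51.4 ± 5.60 in standard. E2f2, another activator, rose in low arginine by 0.30 (SE 0.07, adjusted p 0.0029) and was the 1 gene of the list called in high arginine (0.40, SE 0.07, adjusted p 0.044).

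**Figure D5:**
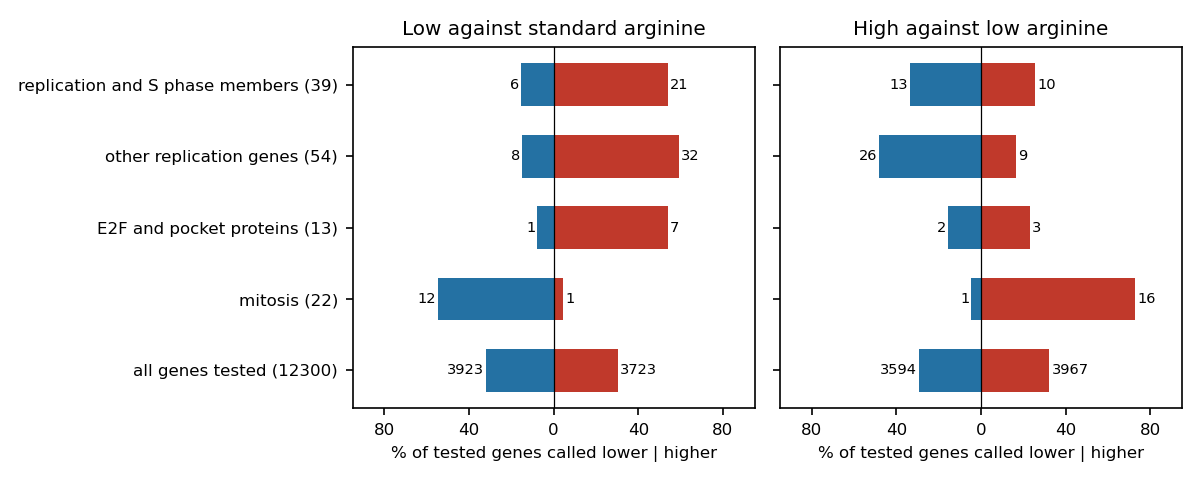
Share of tested genes (x axis, %) called lower (left, blue) and higher (right, red) for low against standard and for high against low arginine, for the 39 members, the 3 comparison lists and all 12300 genes tested; labels give the number of genes. The mitosis bar reaches furthest to the left in low arginine, where the members and the other replication genes reach to the right.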

How the data were processed

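RNA-seq of 9 libraries, 3 each in low, standard and high arginine, was analysed from 1 deposited table of FPKM per gene, with groups and replicate numbers taken from sample titles. Libraries were made from total RNA with a directional kit, per the labels' protocols. The submitters' processing notes name CASAVA 1.8, HISAT2 2.0.5, featureCounts 1.5.0-p3 and the build mm9. Yet, of 54409 IDs also found in GENCODE M21, 98.33% have its GRCm38 start and end, so coordinates are given as GRCm38. The sources used here do not give whether reads were counted by strand. The gene length behind the FPKM, also deposited, equals the union of GENCODE exons in 98.01% of genes.

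FPKM times gene length moved in whole steps (within 0.01 reads), from which reads per library were rebuilt; a count model was not run on FPKM. Genes with at least 1 FPKM in at least 3 libraries, 12300, were analysed as log2(FPKM + 1) in limma 3.58.1 (R 4.3.3). The model held the group alone, took all 9 libraries together, left 6 residual degrees of freedom and used a trended prior. P-values are two-sided and Benjamini-Hochberg adjusted over all genes in each contrast, with a threshold of 0.05. Fold changes on this scale understate changes of low genes, and the exon union understates the level of genes with many isoforms. Pairs of replicates differed by more than sampling noise. Same-numbered low and high libraries correlated at 0.153 to 0.243 in their deviations from group means, all 3 pairs above 0.1, so the numbers were taken to pair these groups from the data, not from the labels; values with the replicate block stand beside that contrast. The fit was tested on simulated data.

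Members, lists and the naming rule were chosen with earlier results of these data known. The rule gave values in each library to members called in high arginine, to the 2 members per step with the smallest p in low arginine, and to members without a call or called against their step. For comparison lists it gave up to 4 called genes. Gmnn, Ndc80 and further E2F and pocket protein genes were named beyond it. Printed promoters depart from the rule: they were limited to stretches outside GENCODE exons where possible and chosen for their matches. Alternatives were the pseudocount, filter, scaling, libraries in the fit, variance model, weights, a replicate block and leaving out each library. No set test was run.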

Additional observations from a re-analysis of the deposited data

How the results depend on the processing

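Over 22 alternatives, 2385 outcomes of single members in a contrast, called or not called, were as reported. A call was lost in 84 and gained in 99, and none changed direction with a call. The outcomes as reported include members without a call in either fit. In low against standard arginine 772 outcomes were as reported, 54 lost and 30 gained a call. The number of members called higher in high against standard arginine, 1, became 0 without a filter on low values, 2 with a mean of at least 5 FPKM, 2 in TPM, 0 with only the 2 groups compared, 18 with array weights, 2 with voom weights on rebuilt reads and 7 once the trend on GC content and length was removed. It was 0 without low replicate 1 and high replicate 1 together; these last 2 alternatives were chosen after seeing the data. Leaving out each library gave 0 to 1 there. The number of all genes called higher there, 17, became 4 without a filter, 23 in TPM, 713 with array weights and 40 with voom weights. In low against standard arginine, members called lower numbered 3 without a filter, 3 in TPM, 3 without both of those libraries, and 3 to 6 leaving out each; members called higher, 21, numbered 18 to 22 leaving out each, 26 in TPM, 26 under quantile normalization and 24 with array weights. Of all genes tested, 4843 were higher in low against standard arginine in TPM, 3932 under quantile normalization and 4060 with array weights. In high against low arginine, 9 to 13 members were higher and 12 to 15 lower leaving out each library. The median log2 change of members in low against standard arginine was 0.361 in TPM, 0.302 under quantile normalization and 0.182 to 0.281 leaving out each library. In high against low arginine it was -0.126 in TPM, -0.11 under quantile normalization and -0.068 to 0.0522 leaving out each; in high against standard it was 0.156 to 0.216. In TPM 3094 of all genes were higher and 4735 lower in high against low arginine. The cause of these shifts was not tested.

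Replicate numbers paired standard libraries with the others less evenly than low with high ones. In their deviations, 1 of 3 same-numbered pairs of low and standard libraries and 2 of 3 of standard and high ones correlated above 0.1. Correlations ran from -0.0355 to 0.117 for low and standard and from -0.0274 to 0.196 for standard and high libraries. With the replicate block 3 members were called higher in high against standard arginine, and 23 higher and 7 lower in low against standard. Of all 12300 genes tested, 46 were higher in high against standard arginine with the block. In low against standard, 3977 were higher and 4110 lower.

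With 3 libraries a group, p-values rest on 6 residual degrees of freedom, and 1 library decides several calls near the threshold. Orc1, the member with the fewest reads, had 141 or more per library, so counting error bears on it most.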
